A study of Zea mays with 42 samples.

Results

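The genes described here are 4 MADS-box genes of maize, zmm27, m5, M14 and m28, which the array reads with 5 of its 17734 probe sets. They were taken by gene symbol or synonym, whole and without regard to case, and they had been chosen by their contrasting signals over the same 14 tissues. Their levels are therefore given as a description and carry no test. zmm27 (GRMZM2G129034), m5 (GRMZM2G171365) and m28 (GRMZM2G147716) have 1 probe set each. M14 (GRMZM2G102161) has 2, called M14 A1 and M14 S1 here after the endings of their IDs. The gene record behind M14 also carries the names zmm8, zmm14 and M8, so the names do not assign these probe sets to one gene of that close pair.

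Untreated plants of the inbred B73 gave 42 Affymetrix arrays, in 14 tissues with 3 biological replicates of each. The seed was sampled as embryo and as endosperm at 10, 15, 20 and 25 days after pollination (DAP). Root, stem, stem tip and leaf came from plants in vegetative growth, and ear and silk were taken before pollination. Seed and non-seed tissues thus have 24 and 18 arrays. Values are MAS5 signals, a linear measure of probe set brightness, and are given as mean ± SD with n = 3 unless stated otherwise. A signal of 100 is used as a floor below which levels were not ranked.

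MADS-box proteins are transcription factors that bind DNA as dimers and assemble into larger complexes. In flowers, the A, B, C, D and E classes act in combinations to set organ identity, and the E class (SEPALLATA-like) proteins link the others into complexes. Relatives of the class A genes (the APETALA1/FRUITFULL group), of SOC1 and of SVP act earlier, around the change from vegetative growth to flowering. zmm27 and M14 belong to the E class, m5 is a relative of the flowering-time gene SOC1, which is also its RefSeq synonym, and m28 belongs to the APETALA1/FRUITFULL group. M14 and its close relative M8 are known from the spikelet, where they mark the upper of its florets.

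All 5 probe sets had their highest tissue mean in ear or silk and signals near or below 100 in embryos after 10 DAP. The contrast between the genes lay in the other tissues. zmm27 and M14 stayed at or below 157 in every vegetative array, m28 read 1913 or more there, and m5 was bright in endosperm as well as in ear. Over all 16206 probe sets with a mean of at least 100 in some tissue, 2861 (17.7%) were highest in ear or silk.

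**Figure D1:**
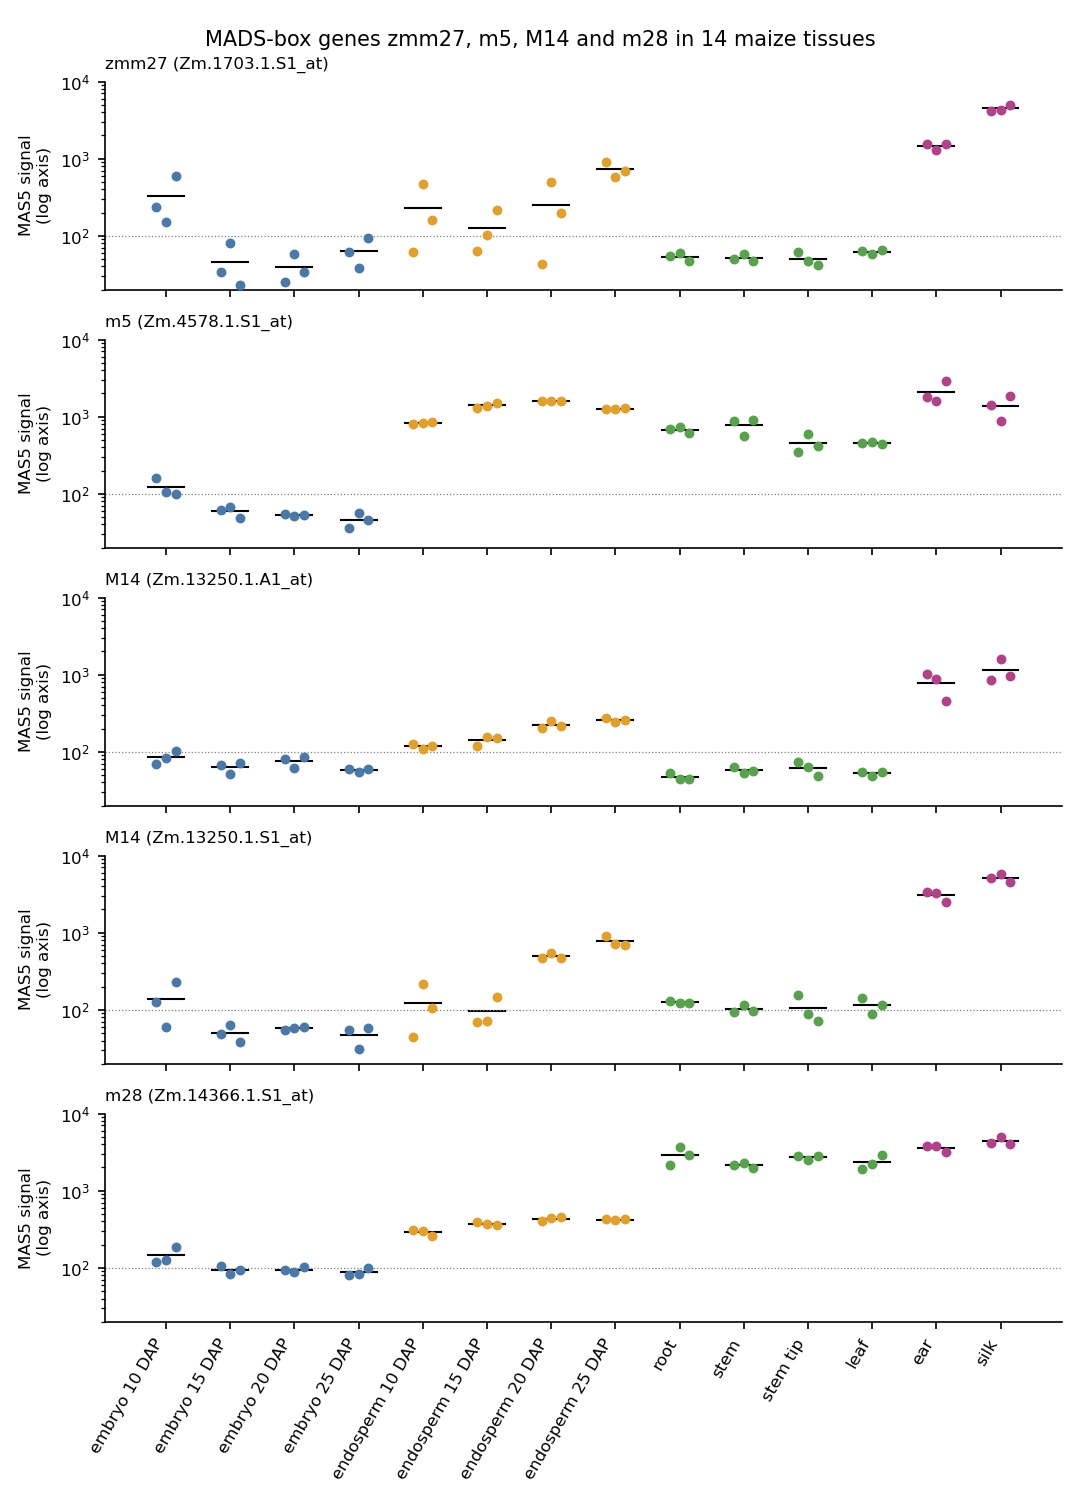
MAS5 signal (log axis) of each probe set in each of the 42 arrays, as points, with the tissue mean as a bar and a dotted line at 100. Embryo is blue, endosperm yellow, vegetative tissues green, ear and silk purple; zmm27 and M14 are low in green, m28 is high there, and all 5 panels are low in blue after 10 DAP.

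zmm27 was brightest in silk. Its signals there were 4136, 4328 and 5026, a mean of 4497 ± 469. In ear they were 1552, 1313 and 1533, with a mean of 1466 ± 133. Silk and ear did not overlap, and both stood clear of every other tissue. The 12 vegetative arrays ran from 41.9 to 64.5 with a median of 56.6, all under the floor. The difference of mean log2 signal between ear and silk and the 4 vegetative tissues was 5.57, a fold of 47.5, or 25.6-fold with signals under 100 taken as 100. Endosperm at 25 DAP came next, with 905, 572 and 696. Those 3 arrays lay above all arrays of endosperm at 10, 15 and 20 DAP, and the mean was 3.16 times that at 10 DAP.

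Below these tissues, the order of zmm27 means could not be read. Signals were 239, 152 and 600 in embryo at 10 DAP, 60.8, 468 and 158 in endosperm at 10 DAP, 64.0, 103 and 215 at 15 DAP, and 42.8, 501 and 200 at 20 DAP. Replicates of 1 tissue thus differed by more than most tissue means did, and only 2 of the 13 steps between neighbouring tissues in the order of means were free of overlap. Embryo arrays from 15 to 25 DAP ran from 23.2 to 93.4, so in embryo zmm27 passed 100 only at 10 DAP.

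M14 gave the same outline through both probe sets. M14 S1 read 5105, 5799 and 4516 in silk (mean 5140 ± 642) and 3386, 3253 and 2487 in ear (3042 ± 485), and the 2 tissues did not overlap. Its vegetative arrays ran from 72.0 to 157. The difference between ear and silk and the vegetative tissues was 5.17 on the log2 scale. The other probe set, M14 A1, read 849, 1581 and 972 in silk and 1027, 872 and 454 in ear, which overlapped, and from 44.8 to 72.95 in vegetative arrays, all under the floor. Its log2 difference was 4.05, or 16.6-fold, and 9.0-fold with signals under 100 taken as 100. Tissue means of log2 signal from the 2 probe sets had a Pearson r of 0.93 but a Spearman rho of 0.52 over 14 tissues.

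In endosperm M14 was higher late than early. M14 S1 read 475, 545 and 473 at 20 DAP and 918, 717 and 682 at 25 DAP, against 44.4, 219 and 104 at 10 DAP and 69.2, 70.6 and 146 at 15 DAP. All 6 late arrays stood above all 6 early ones, a difference of 6.51-fold, or 5.05-fold with signals under 100 taken as 100. M14 A1 showed the same split at lower signal, with means of 118 ± 7.75, 142 ± 19.8, 222 ± 23.5 and 259 ± 12.7 from 10 to 25 DAP and a log2 difference of 0.89. In embryo neither probe set exceeded 100 in any array after 10 DAP.

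m5 was bright on both sides of the seed boundary. Endosperm signals were 796, 833 and 841 at 10 DAP, 1303, 1394 and 1521 at 15 DAP, 1606, 1587 and 1618 at 20 DAP, and 1265, 1258 and 1297 at 25 DAP. The 4 ages did not overlap with one another, so the signal was higher at 15 than at 10 DAP, highest at 20 DAP and lower again at 25 DAP. Embryo was the opposite: 160, 106 and 100 at 10 DAP, and from 36.2 to 67.0 in the 9 later arrays. Endosperm and embryo differed by 4.27 on the log2 scale (19.3-fold), or 11.9-fold with signals under 100 taken as 100. The ratio of endosperm to embryo mean was 6.75 at 10 DAP. All later embryo arrays were under the floor, and with them taken as 100 the ratio was 14.1 at 15 DAP, 16.0 at 20 DAP and 12.7 at 25 DAP.

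Outside the seed, m5 read 1802, 1594 and 2905 in ear (2100 ± 705) and 1431, 884 and 1841 in silk (1385 ± 481). These wide ranges overlapped each other. Ear also overlapped endosperm at 20 DAP, and silk overlapped endosperm at 15, 20 and 25 DAP. Root (680 ± 68.4) and stem (782 ± 187) overlapped, as did stem tip (453 ± 130) and leaf (455 ± 8.29). Ear stood above all vegetative arrays, which ran from 346 to 893, but silk did not. Signals of m5 were above 100 in every array outside embryo.

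m28 was the one gene of the 4 with high signals throughout the vegetative plant. Its means were 2908 ± 755 in root, 2130 ± 149 in stem, 2715 ± 193 in stem tip and 2334 ± 499 in leaf, and these 4 tissues overlapped as neighbours in the order. Ear read 3847, 3782 and 3144 and silk 4194, 4990 and 4062, so silk lay above ear but ear overlapped root. The ear and silk tissues exceeded the vegetative ones by only 0.68 on the log2 scale, and arrays of the 2 sides overlapped.

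The seed formed a lower pair of steps for m28. Endosperm ran from 261 to 459 over its 12 arrays and embryo from 81.3 to 187, and the 2 organs did not overlap. Every one of the 18 non-seed arrays, from 1913 upward, stood above every one of the 24 seed arrays, with a log2 difference of -3.88 for seed minus non-seed (14.8-fold). In endosperm the mean went from 292 ± 27.1 at 10 DAP to 374 ± 17.8 at 15 DAP and 433 ± 30.6 at 20 DAP without overlap, and 423 ± 10.2 at 25 DAP overlapped the 20 DAP arrays. In embryo it was 145 ± 36.7 at 10 DAP and close to the floor afterwards.

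Ranks within each array, which do not depend on its scaling, gave the same outline. m28 lay at the 91.2 percentile of non-control probe sets in silk, the 81.2 percentile in leaf and the 21.9 percentile in embryo at 25 DAP (means of 3 arrays). zmm27 was at 91.4 in silk and 16.6 in leaf. m5 was at 79.2 in endosperm at 20 DAP and 13.6 in embryo of that age. The tissue-specificity index tau, which is 0 for an even signal and 1 for a signal in a single tissue, was 0.84 for zmm27, 0.86 and 0.84 for the M14 probe sets, 0.55 for m28 and 0.50 for m5, beside a median of 0.41 over the 16206 probe sets.

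Comparing a gene with m28 on the same array leaves any scaling of that array out. From leaf to silk, the log2 ratio to m28 was 5.24 higher for zmm27, 3.45 and 4.56 higher for M14, and 0.61 higher for m5. Ratios in the 3 silk arrays did not overlap those in the 3 leaf arrays for zmm27 and both M14 probe sets, but they did for m5. Leaf signals of zmm27 and M14 A1 were under the floor, so the sizes of these changes are uncertain. From embryo to endosperm, the ratio of m5 to m28 was 2.40 higher without overlap, whereas those of zmm27 (-0.26) and M14 (-0.54 and 0.07) overlapped.

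Some properties of the arrays moved with these tissues. RNA quality differed: the log2 ratio of the 3′ to the 5′ control probe set of elongation factor 1α was 4.82 in ear, 5.93 in silk and 3.85 in stem, against 1.37 to 2.00 in the other tissues. Its highest single value, 6.92, was that of ear replicate 3, in which m5 was highest of the ear arrays and both M14 probe sets and m28 were lowest. Trimmed mean signals lay between 894 and 1076 in seed and between 1137 and 1253 elsewhere. The lowest correlation between replicates over all probe sets was 0.929, in root. Of the marker probe sets, 9 of 11 for leaf and 4 of 6 for root were highest in their own tissue, while 0 of 2 meristem markers were highest in stem tip or ear, and their summed signal was highest in stem. The part of these differences in the members' signals was not tested.

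Markers of the other seed organ also moved. The 14 zein probe sets, read as endosperm markers, were all highest in endosperm, but their summed signal in the 3 embryo arrays at 10 DAP was 63320, 22357 and 33639, and in embryo at 15 DAP it was 52677 in replicate 2 against 4343 and 4556. At 10 DAP m5 was highest in the array with the highest zein sum, with 160 in replicate 1 against 106 and 100. At 15 DAP m5 read 62.3, 67.0 and 47.9, all under the floor and so not ranked. zmm27 was highest in replicate 3 at 10 DAP. At 15 DAP it read 33.6, 79.9 and 23.2, also under the floor. The 4 embryo marker probe sets summed to 14658 to 16735 in endosperm at 25 DAP and to 1231, 6603 and 3721 at 20 DAP, in the replicate order in which zmm27 read 42.8, 501 and 200. At 10 DAP the orders differed (7097, 7597 and 8381, against 60.8, 468 and 158), and at 15 DAP replicate 3 was highest for both. In embryo at 10 DAP, zmm27 read 152 to 600, with embryo marker sums of 23269 to 27611. From 15 to 25 DAP it read under 100, with sums of 33023 or more. The part of either tissue in these signals was not tested further.

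zmm27 differed widely between replicates, and some other MADS-box probe sets differed in the same arrays. Over the 12 endosperm arrays and the 3 embryo arrays at 10 DAP, each array's deviation from its tissue mean was taken on the log2 scale, with signals under 32 set to 32. The pooled SD of zmm27 was 1.21, larger than that of 99.96% of the 17621 non-control probe sets. That of M14 S1 was 0.73, larger than that of 99.5%, while m5, m28 and M14 A1 had pooled SDs of 0.17, 0.18 and 0.18. The probe sets whose deviations were most like those of zmm27, out of 17319 with any deviation, were those of M7 (r = 0.99) and zmm6 (r = 0.97), both of the E class. The RefSeq record of zmm6 also carries the name M7, so the names do not show these to be separate genes. In endosperm at 20 DAP, M7 read 15.9, 566 and 213 and zmm6 read 155, 465 and 317, in the same order as zmm27.

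Of the 20 probe sets most like zmm27 in this measure, 10 had their highest mean in ear or silk. The share was 17.7% over the 16206 probe sets with a mean of at least 100 in some tissue. Among MADS-box probe sets, the B class gene zmm29 (r = 0.87, rank 21 of all), the D class gene m1 (r = 0.87, rank 26) and the C class gene ZMM2 (r = 0.86, rank 27) came after those of M7 and zmm6. M14 S1 had r = 0.76 and M14 A1 r = 0.45. Values were lower for m28 (r = 0.37), m5 (r = 0.02), the B class genes sts1 and si1 (r = 0.01 and -0.00) and zap1 (r = -0.24). These correlations are over 15 arrays of 5 tissues, share those arrays and were looked at after the values were seen. A set of 33 probe sets with a silk mean of at least 1000 and at least 20 times the highest vegetative mean, MADS-box genes left out, had median signals of 77.1, 115 and 133 in the 3 endosperm arrays at 20 DAP. The sum of these probe sets was 2.23%, 3.21% and 3.08% of their silk sum in those arrays and 13.3% to 14.2% in endosperm at 25 DAP, and the part of such signal in that of zmm27 was not tested. Cross-hybridization between zmm27, M7 and zmm6 was not tested, since probe sequences were not used here.

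**Figure D2:**
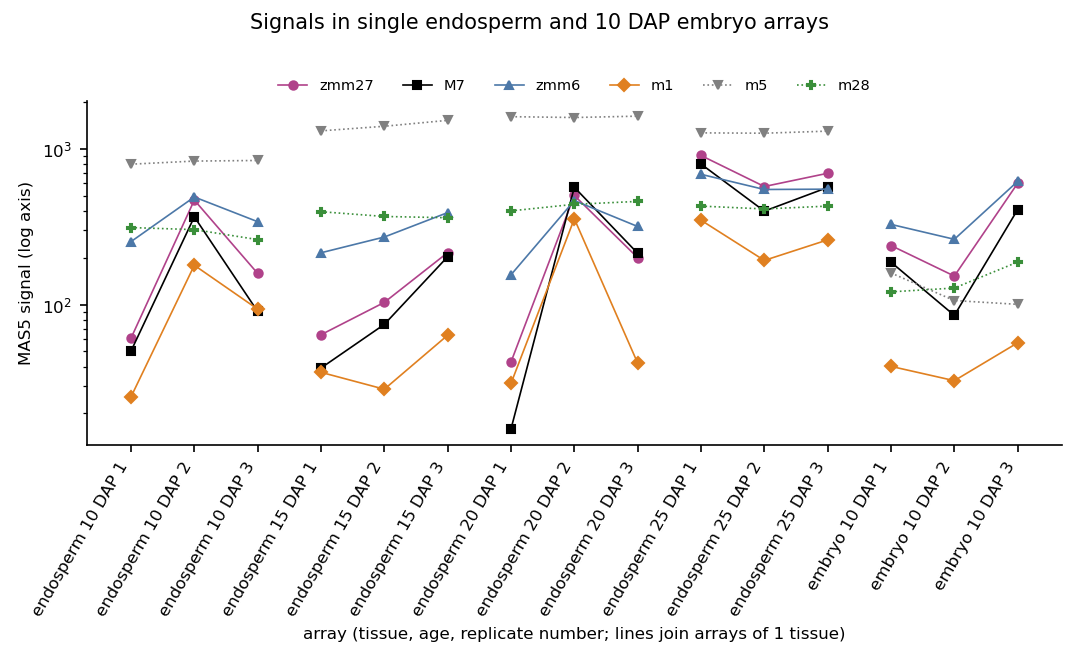
MAS5 signal (log axis) in each endosperm array and each 10 DAP embryo array, with lines joining the 3 replicates of a tissue. zmm27, M7 and zmm6 go up and down together between replicates, and m1 does so in most tissues, as in endosperm at 20 DAP, where zmm27 reads 42.8, 501 and 200; m5 and m28 (dotted) stay level there.

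The other MADS-box genes give the setting for these patterns. The list holds 26 further probe sets of 23 genes, counted by gene record with M7, zmm6 and M8 apart. Classes C and D give 7, class E 6, the SVP-like group 5, class B and the APETALA1/FRUITFULL group 3 each, and AGL6-like genes 2. Of the 26, 18 were highest in ear or silk (69.2%), 6 in a vegetative tissue, 2 in endosperm and 0 in embryo. Over the 16206 probe sets with a mean of at least 100 in some tissue, these counts were 2861 (17.7%), 5862, 4391 and 3092. The 26 probe sets were tested with limma across all 17621 non-control probe sets with Benjamini-Hochberg adjustment. Probe sets are called at 2-fold or more with an adjusted p below 0.05.

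**Figure D3:**
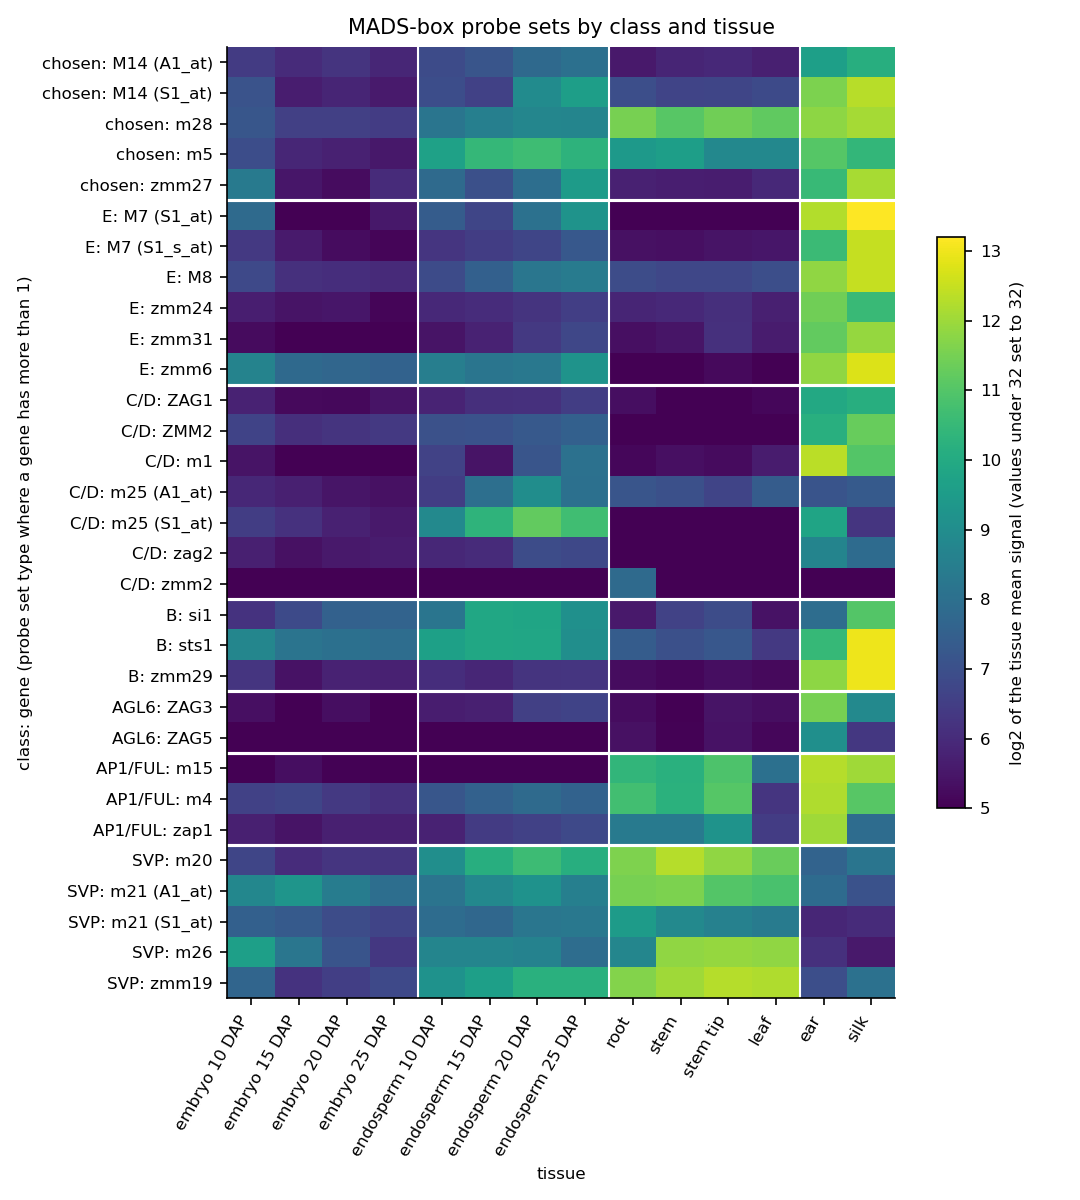
Heat map of log2 tissue mean signals (values under 32 set to 32) of the 5 chosen probe sets and the 26 other MADS-box probe sets, with rows ordered by class and columns by tissue. Classes B and E are bright in ear and silk, apart from si1 of class B, which is bright in silk (2068) but not in ear (247). Classes C and D are also bright there, apart from zmm2 and m25. The S1 probe set of m25 is bright in ear (894) but not in silk (76.2), and zag2 is dimmer (413 and 233). The 5 SVP rows are bright in vegetative tissues, and m28 is bright there and in ear and silk.

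Between ear and silk and the vegetative tissues, 19 of the 26 rose (73.1%, against 8.84% of all probe sets) and 5 fell (19.2%, against 6.37%). The median log2 difference was 3.56, beside 0.04 over all probe sets. The largest were M7, which went up by 8.84 ± 0.52 (SE; adjusted p = 9.3e-16), ZMM2 by 7.51 ± 0.18 (adjusted p = 3.4e-26) and zmm6 by 7.37 ± 0.19 (adjusted p = 2.6e-25). Their vegetative means were at most 36.7, so that with signals under 100 taken as 100 the folds were 66.9, 16.7 and 50.3. All 6 class E probe sets rose, as did the 3 of class B. The class E differences ran from 5.10 to 8.84, beside 5.57 for zmm27 and 4.05 and 5.17 for M14.

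The 5 that fell were the 5 SVP-like probe sets. m26 fell by 5.26 on the log2 scale (SE 0.08, adjusted p = 3.5e-31; 38.3-fold, or 21.8-fold with the floor), zmm19, which RefSeq also names tunicate1, fell by 4.52 (adjusted p = 9.3e-25) and m20 fell by 3.90 (adjusted p = 1.4e-24). SVP itself, after which the group is named, is known as a repressor of flowering in Arabidopsis, and its bearing on these falls was not tested. Ear and silk arrays of each lay below all vegetative arrays. m28 and m5, with 0.68 and 1.53, lay between these and the class E genes.

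Within its own group m28 stood beside genes of low leaf signal. m15, m4 and zap1, the other named APETALA1/FRUITFULL genes of the list, were highest in ear at 5040 ± 128, 4746 ± 315 and 4209 ± 530. In leaf their means were 260, 76.5 and 87.0, which is 5.16%, 1.61% and 2.07% of each gene's ear mean, whereas leaf gave 52.9% of the highest mean of m28. The other vegetative tissues were not low: root, stem and stem tip means were 1189 to 2087 for m15 and m4 and 323 to 587 for zap1. In silk m15 and m4 stayed high (4144 and 2144) and zap1 did not (241). All 3 rose in ear and silk against vegetative tissues, by 2.03 to 2.32 on the log2 scale. These ratios are each within 1 probe set, and the difference between the genes was not tested.

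Seed arrays were lower than non-seed arrays for 15 of the 26 probe sets (57.7%, against 16.1% of all), and higher for 2 (7.69%, against 12.2%). m15 fell by 5.93 on the log2 scale (adjusted p = 1.7e-32), which is 60.8-fold, or 15.6-fold with signals under 100 taken as 100. It was the one of the 26 called without overlap between the 24 and 18 arrays. m28, with a difference of -3.88 and no overlap, was lower in seed by the second-largest amount when set beside the list. Those called higher were ZMM2 and the S1 probe set of m25, both with overlap. The ZMM2 call rests on vegetative signals far under the floor: its difference was 1.05 as measured and -1.05 with signals under 100 taken as 100. The A1 probe set of m25 had a difference of -0.36 and was not called, against 2.35 for S1. Only 1 probe set was called higher with quantile normalization, hybridization control centring, a pseudocount of 32 or without replicate 2. For m5, zmm27 and M14 the seed difference mixed high and low tissues on both sides: it was -1.52, -0.67, and -0.32 and -1.55, all with overlap.

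Endosperm exceeded embryo for 12 of the 26 (46.2%, against 14.8% of all) and was lower for 0, against 16.7% of all. With no fold required limma gave 1 lower, also at an unadjusted p under 0.05. Centring arrays on hybridization controls left 7 higher and 0 lower. With signals under 100 taken as 100, 7 of the 12 calls were still at 2-fold or more, and those of zmm31, both M7 probe sets, m1 and m4 were not. m25, a class D relative, rose by 4.29 ± 0.12 (adjusted p = 2.9e-25; 19.6-fold, or 12.1-fold with the floor) through its S1 probe set and by 2.27 (adjusted p = 4.2e-22) through A1. m20 rose by 3.67 ± 0.09 (adjusted p = 2.6e-27) and zmm19 by 3.02 ± 0.10 (adjusted p = 1.5e-23), and none of these overlapped. Both m25 probe sets were brightest at 20 DAP, with means of 2385 ± 215 and 520 ± 70.7. The m5 difference of 4.27 lay beside the larger one of m25. For m28 it was 1.87. For zmm27 it was 1.61 with overlap (3.06-fold, or 1.93-fold with the floor). For M14 A1 it was 1.34 without overlap (2.52-fold, or 1.75-fold with the floor). For M14 S1 it was 1.94 with overlap (3.85-fold, or 2.51-fold with the floor).

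With age, fewer of the list moved. In endosperm 4 of 26 were higher at 20 and 25 DAP than at 10 and 15 DAP (15.4%, against 5.23% of all) and 0 lower (against 1.86%). With no fold required limma gave 2 lower, as at an unadjusted p under 0.05. Centring on hybridization controls left 2. The S1 probe set of m25 rose by 1.36 ± 0.17 (adjusted p = 1.2e-07) and M8 by 1.14 ± 0.15 (adjusted p = 2.7e-07), both without overlap. M8 read 116, 184, 300 and 344 on average from 10 to 25 DAP. M14, whose late and early arrays were also apart, is a close relative of M8. The gene record behind M14 also carries the name M8, so the names do not show these to be separate genes. zmm27 had a late difference of 1.32 with overlapping arrays.

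In embryo 1 of 26 was higher late (3.85%, against 6.95% of all) and 1 lower (3.85%, against 3.69%). si1, the class B gene whose mutants are named silky, rose by 1.04 ± 0.12 (adjusted p = 2.0e-08), a call that was lost with quantile normalization, median centring, a pseudocount of 32 or without replicate 3, and its fold was 1.77 with signals under 100 taken as 100. m26 fell by 2.19 on the log2 scale (adjusted p = 8.9e-19), from a mean of 797 at 10 DAP to 80.8 at 25 DAP. The 4 chosen genes were all lower late than early in embryo, by 0.14 to 1.16 on the log2 scale, with overlap in each and with late signals near or below the floor. Hybridization control centring turned the smallest of these, that of M14 A1, to 0.00594.

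**Figure D4:**
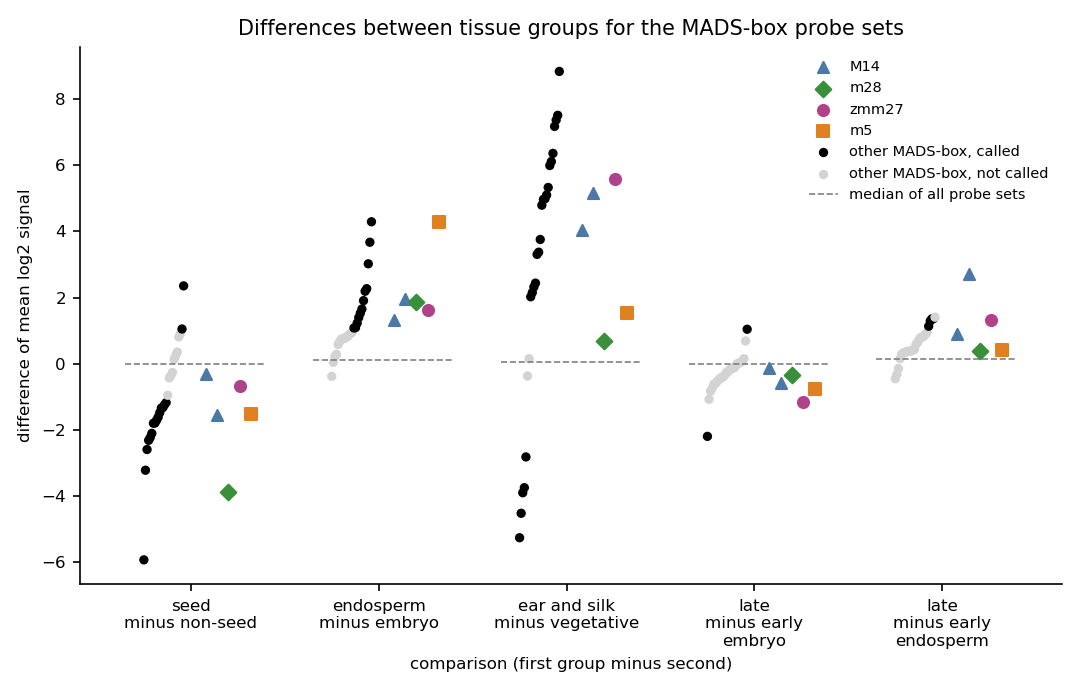
Difference of mean log2 signal in each of 5 comparisons, first group minus second, for the 26 other MADS-box probe sets (black where called, grey where not) and the 5 chosen probe sets (coloured, with no test). Dashed lines are the medians of all probe sets. m28 lies lowest of the 5 in seed minus non-seed (-3.88), m5 highest in endosperm minus embryo (4.27), and zmm27 highest in ear and silk minus vegetative (5.57).

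The lists of flowering-time genes and of inflorescence and meristem genes, the latter with leaf genes such as lg1 and lg2, did not share one pattern. Among 4 probe sets of 3 flowering-time genes, both for zfl1, a maize LEAFY homologue, rose in ear and silk against vegetative tissues, the stronger by 1.45 ± 0.16 (adjusted p = 4.4e-09), and none fell. That is 50.0% higher, beside 8.84% of all probe sets, over a list of only 4. id1, which promotes the floral transition from the leaf, fell by 1.90 in seed, and by 0.04 with signals under 100 taken as 100. Among 16 inflorescence and meristem genes, 6 rose (37.5%, against 8.84% of all) and 3 fell (18.8%, against 6.37%) in ear and silk. The spikelet gene ids1 rose by 1.99 ± 0.10 (adjusted p = 1.1e-17). In endosperm against embryo 2 rose (12.5%, against 14.8% of all) and 7 fell (43.8%, against 16.7%). The gene rs2 fell by 4.52 (adjusted p = 1.2e-23; 23.0-fold, or 15.3-fold with the floor). The YABBY gene ZYB9 fell by 3.92 (adjusted p = 1.3e-20; 15.1-fold, or 7.70-fold with the floor).

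The probe sets most like each chosen gene were taken by Pearson r across tissue means (n = 14) on the log2 scale, values under 32 being set to 32, among 16206 probe sets. The means share libraries and the correlations carry no test. For zmm27 the nearest was M7 (r = 0.98), followed by the second M7 probe set (r = 0.94) and M14 (r = 0.94). M14 A1 was nearest to M7 (r = 0.97), ZMM2 (r = 0.97) and zag2 (r = 0.96), and M14 S1 to M8 (r = 0.97), m1 (r = 0.94) and M7 (r = 0.94). M8 is also a name in the M14 record, so the names do not show M14 and M8 to be separate genes. Without ear and silk, zmm27 and M7 still had r = 0.98, while zmm27 and M14 A1 had r = 0.81.

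m28 and m5 had no MADS-box gene among their nearest 3 named probe sets. m28 lay close to LOC541692 (r = 0.98, signal at most 153), glu1, a beta-glucosidase (r = 0.96), and aba1 (r = 0.96), and, among named probe sets, farthest from vp1 (r = -0.98), a transcription factor of embryo maturation. m5 was near PP2C (r = 0.89), ubc7 (r = 0.89) and PDIL5-1 (r = 0.88), and farthest among named ones from iso3, an isoamylase gene (r = -0.92). Unnamed probe sets were nearer to and farther from both. Only 1452 of the 17734 probe sets were assigned to a single named gene, and any with several genes were counted as unnamed. Among the chosen genes, r was 0.94 and 0.93 between zmm27 and the M14 probe sets, 0.70 between m5 and m28, and 0.36 between zmm27 and m28. Over the 8 seed tissues alone, r between chosen genes ran from 0.66 (zmm27 and m5) to 0.996 (m5 and m28). M14 A1 had r = 0.95 with m28 and 0.92 with m5 there. All 5 probe sets had a higher mean log2 signal in endosperm than in embryo.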

How the data were processed

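Total RNA of 42 B73 samples was labelled with a 3′ IVT kit and hybridized to Affymetrix maize arrays. The authors computed MAS5 signals, and the deposited values are linear signal intensities, 1 per probe set and array. The version of MAS5, its scaling target and its detection calls are not given in the sources used here, and arrays have no read depth, so their number limits the precision.

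The log2 of each signal was used as deposited. R 4.3.3 and limma 3.58.1 fitted 1 mean per tissue to the 42 arrays, with 28 residual degrees of freedom and a trended prior variance. Benjamini-Hochberg adjustment covered 17621 probe sets, with 113 controls left out. Gene names came from the platform's probe annotation and RefSeq symbols and synonyms. The members and gene lists were chosen with earlier results of these data known. Name clashes (a catalase named ct2, a hemoglobin named GLB1) were removed, and zeins were taken by symbol. Named list genes are those with the largest called differences without overlap between arrays, up to 3 per direction for MADS-box genes and 2 for the other lists; m1, zmm29, M7, zmm6, sts1, si1 and ZMM2 in the comparison of replicates, and m15, m4 and zap1 by tissue, were named by class or after their values were seen, as were ZMM2, zmm31, M7, m1 and m4 where a call depended on the floor of 100. The fit was tested on simulated data. Alternatives were 3 scalings, a pseudocount of 32, a filter at 100 in 3 arrays, no trend, no fold threshold, a replicate block and arrays left out, with the floor of 100 added after seeing the data.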

Additional observations from a re-analysis of the deposited data

How the results depend on the processing

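Of 85 counts of called MADS-box probe sets under 17 alternatives, 74 stayed within 1.5 times the main count. Hybridization-control centring, which moved the median of all probe sets by -0.58 (endosperm against embryo), -0.33 (late against early endosperm) and -0.32 (ear and silk against vegetative), gave 7 for endosperm against embryo in place of 12, and 2 for late against early endosperm in place of 4. With no fold threshold these 2 comparisons gave 23 and 18, and late against early embryo gave 11 in place of 2. That embryo count was 1 with quantile normalization, with median centring and with a pseudocount of 32. The cause of these changes was not tested beyond what each setting does by construction. Of 175 differences of the chosen probe sets under 7 alternatives, 1 reversed, the late against early embryo difference of M14 A1 (0.00594 with hybridization-control centring, against -0.14), and 17 moved by more than the replicate SD.

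Leaving out replicates or single arrays gave 16 to 18 calls for seed against non-seed, 11 to 13 for endosperm against embryo, 24 throughout for ear and silk against vegetative, 1 to 2 for late against early embryo (1 without replicate 3 of every tissue) and 4 to 5 for late against early endosperm. With hybridization-control centring the share of higher calls over all probe sets went from 47.0% to 16.3% for endosperm against embryo, from 58.1% to 33.0% for ear and silk, from 65.3% to 76.3% for late embryo and from 73.7% to 34.1% for late endosperm. Median centring gave 58.9%, 47.9%, 54.5% and 56.5%, and quantile normalization 54.0% for late endosperm. The sample titles do not say whether replicates of one number were paired across tissues. Over 273 pairs of arrays with the same number, the median correlation of deviations was 0.01 (from -0.47 to 0.50, 44 above 0.1). Of the 42 arrays, 18 were nearest to an array of the same number in another tissue. With the replicate block the counts were 17, 12, 24, 2 and 4, as without it. With signals under 100 taken as 100, an alternative chosen after seeing the data, calls still at 2-fold or more were 15, 7, 24, 1 and 3 in the same order, and the seed difference of ZMM2 reversed from 1.05 to -1.05. Adding m17, which the list had missed, and keeping 1 probe set per gene were chosen after seeing the data and gave 25 and 22 for ear and silk against vegetative.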
